A study of Mus musculus with 3 samples.

Results

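The MYC, MAX and MXD network was examined in single-cell RNA libraries of mouse spleen CD4+ T cells through 9 genes, *Myc*, *Max*, *Mxd1*, *Mxd3*, *Mxd4*, *Mxi1*, *Mnt*, *Mlx* and *Mga*. They were taken by gene symbol from the 31053 genes of the deposited feature tables, and each symbol was found there. No limit on a measured value was used, but earlier results of these data were known when the genes were chosen. The study asked which genes act in CD4+ T cell activation and what the loss of IFT20, a protein of intraflagellar transport, does to it. All mice were male C57BL/6 animals of 5 to 10 weeks of age and carried the *Ift20* f/f allele. Naïve CD4+ T cells were enriched from their spleens and sorted as 7AAD-CD3+CD4+ cells. Unstimulated WT cells (*Ift20* f/f, no Cre) were kept in DPBS, and the label of their library gives the starting time and not 24 h. Stimulated WT cells had the same genotype and were cultured for 24 h with antibodies to CD3 and CD28, each at 1 μg/mL. Stimulated IFT20-KO cells (*Ift20* f/f CD4 cre) received the same stimulation, and their deletion is made by Cre under a *Cd4* promoter, which is active from T cell development in the thymus onwards. No unstimulated IFT20-KO library was analysed here, and none of WT cells cultured for 24 h without the antibodies. What is called stimulation below therefore joins the antibodies with 24 h of culture, and the part of each was not tested. How many mice went into each library was not given in the sources used here.

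MYC is a transcription factor that binds DNA as a dimer with MAX, at the E-box CACGTG and related sequences, and it drives ribosome building, nucleotide and polyamine synthesis, glycolysis and cell growth. MAX also pairs with MXD1, MXI1, MXD3, MXD4, MNT and MGA, and these dimers repress transcription from the same sequences. MLX is a MAX-like partner for the glucose-responsive factors MLXIP and MLXIPL and also binds some MXD proteins and MNT. In T cells, antigen receptor and CD28 signals induce MYC within hours, and MYC is required for the metabolic switch that precedes division, whereas several MXD proteins are associated with resting or differentiated cells.

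Each condition was 1 library, so values have no replicates and neither tests nor p-values are given. Expression of a gene was measured in UMIs (unique molecular identifiers, tags that mark single captured RNA molecules), summed over the kept cells and given per 1000000 UMIs of the library (CPM). Intervals in brackets are exact 95% intervals that cover counting error only. A difference is the log2 ratio of 2 CPM values. The filter kept 8031 of 8253 barcodes of the unstimulated WT library, 9903 of 10320 of the stimulated WT library and 13920 of 13932 of the stimulated IFT20-KO library, with 37133949, 116979076 and 106435143 UMIs and medians of 4627, 12167 and 5014.5 UMIs per cell. Between 114 and 197 cell barcodes were shared by each pair of libraries. *Ift20* stood at 64.4 CPM in the unstimulated WT library, 76.0 CPM after stimulation of WT cells and 6.60 CPM in the IFT20-KO library, as the labels say. All 7 CD4+ T cell markers were detected in each library at 120 CPM or more. Of the B cell markers, *Ms4a1* had 1 UMI at most in any library, *Cd79a* reached 0.835 CPM at most and *Ighm* stood between 143 and 283 CPM. Of the CD8 T cell markers, *Cd8a* reached 0.291 CPM at most and *Cd8b1* stood at 28.6, 9.04 and 11.2 CPM in the same order of libraries, and the part of such cells in the results was not tested. The NK, erythroid and platelet lists summed to at most 0.242 CPM and the myeloid list to between 1.56 and 3.55 CPM. No value is therefore available from a cell type that lacks the 9 genes, and shares of cells with a UMI are given without such a background.

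The repressive partners *Mxd4* and *Mnt* had the lowest ratios of the 9 genes on stimulation, and both hold the E-box CACGTG in the 250 bases before their RefSeq start. These sequences are shown because they are the DNA that dimers of the network are known to bind, with the motif in capitals, 5′ to 3′ on the strand of the gene, from RefSeq on GRCm38.p6.
*Mxd4*, chr5:34187711-34187960, minus strand: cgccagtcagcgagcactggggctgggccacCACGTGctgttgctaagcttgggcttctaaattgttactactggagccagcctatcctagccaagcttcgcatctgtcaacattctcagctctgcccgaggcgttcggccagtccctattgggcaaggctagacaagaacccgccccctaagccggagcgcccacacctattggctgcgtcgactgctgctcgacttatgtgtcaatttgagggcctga
*Mnt*, chr11:74830674-74830923, plus strand: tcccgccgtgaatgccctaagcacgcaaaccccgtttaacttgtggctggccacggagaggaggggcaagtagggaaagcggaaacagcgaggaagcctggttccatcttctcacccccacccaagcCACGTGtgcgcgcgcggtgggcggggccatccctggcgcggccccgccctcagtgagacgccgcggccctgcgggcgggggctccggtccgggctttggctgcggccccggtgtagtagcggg
The motif, which reads the same on both strands, began 219 bases before the start of *Mxd4* and 123 bases before that of *Mnt*. It was also found in the promoters of *Mlx*, from 40 bases before the start, and of *Max*, from 3 bases before it. The promoter table matched 8 of the 9 genes, all but *Myc*, with 10 promoters of 300 bases. Of these, 4 held CACGTG, compared with 7.15% of all 32851 promoters in the table. *Max* and *Mlx*, which also hold the motif, did not pass the fold used below for stimulation. The letters are a description of these windows and not a measure of binding.

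In CPM, *Myc* expression was higher after stimulation and the repressive partners were mostly lower. In UMIs per cell, *Mxd4* alone of these partners was lower. *Myc* stood at 75.6 CPM (72.8 to 78.4) in unstimulated WT, 264 CPM (261 to 267) in stimulated WT and 219.9 CPM (217 to 223) in stimulated IFT20-KO cells. The stimulated WT library was the highest and the unstimulated the lowest, and none of the 3 intervals overlapped. The log2 ratio of stimulated over unstimulated WT was 1.81 (1.75 to 1.86), against a median of -0.089 over the 13297 genes tested, those whose UMIs in the WT libraries came to 10 or more. *Myc* lies at chr15:61985391-61990374 on the plus strand of GRCm38. A UMI of *Myc* was found in 22.7% of unstimulated WT cells, 66.6% of stimulated WT cells and 57.2% of IFT20-KO cells. After each cell was thinned to 1400 UMIs, which leaves out 801, 421 and 0 shallower cells, the shares were 8.46%, 25.6% and 24.0%.

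*Max*, the shared dimer partner, stood at 109.953 CPM in unstimulated WT, 145 CPM in stimulated WT and 140.08 CPM in IFT20-KO cells. Both stimulated libraries were above the unstimulated one, with a log2 ratio of 0.40 (0.35 to 0.45) for stimulation of WT cells, so *Max* differed far less than *Myc*.

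*Mxd4* had the lowest log2 ratio in CPM of the MXD genes on stimulation. It stood at 68.6 CPM (66.0 to 71.4) in unstimulated WT, 14.9 CPM (14.2 to 15.6) in stimulated WT and 23.8 CPM (22.9 to 24.8) in IFT20-KO cells. The order was unstimulated WT, then IFT20-KO, then stimulated WT, with no overlap of intervals and a log2 ratio of -2.21 (-2.30 to -2.12) for stimulation, or -0.85 in UMIs per cell. *Mxd1* stood at 9.34 CPM (8.39 to 10.4), 5.90 CPM (5.47 to 6.36) and 7.49 CPM (6.98 to 8.03) in the same order of libraries. Its log2 ratio for stimulation was -0.66 (-0.85 to -0.47), but 0.28 in cells thinned to 1400 UMIs and 0.69 in UMIs per cell. Its direction therefore depended on the measure, and the mean of per-cell fractions kept the sign of the CPM ratio. Thinning also leaves out cells under 1400 UMIs, and the cause of the change of sign was not tested. *Mxi1* stood at 6.68 CPM (5.87 to 7.56), 4.001 CPM (3.65 to 4.38) and 4.72 CPM (4.31 to 5.15). The stimulated libraries, whose intervals overlapped each other, were both below the unstimulated one, with a log2 ratio of -0.74 (-0.96 to -0.51) in CPM and 0.61 in UMIs per cell.

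*Mxd3*, which other work ties to dividing cells, was the scarcest of the 9 genes in UMIs. In CPM over the whole library it went the other way from the other MXD genes on stimulation. In UMIs per cell it was higher, as *Mxd1* and *Mxi1* were. It had 16 UMIs in unstimulated WT (0.431 CPM, 0.246 to 0.700), 94 in stimulated WT (0.804 CPM, 0.649 to 0.983) and 148 in IFT20-KO cells (1.39 CPM, 1.18 to 1.63). The intervals of the WT libraries overlapped, and the log2 ratio of stimulation was 0.90 (0.13 to 1.76). In the unstimulated library 4 cells held 6, 3, 3 and 1 of the 16 UMIs, and these cells had between 51 and 189 UMIs of a list of 15 G2/M genes. Without the 2 deepest unstimulated cells, which held 7 of the 16, the ratio was 1.73 (0.74 to 2.90), a calculation added after the values were seen. No stimulated cells were left out, so this step could only raise the ratio, and nothing is read from it.

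*Mnt*, a broadly expressed repressor that competes with MYC for MAX, stood at 14.2 CPM (13.0 to 15.5) in unstimulated WT, 5.84 CPM (5.41 to 6.29) in stimulated WT and 7.12 CPM (6.62 to 7.65) in IFT20-KO cells. The unstimulated library was the highest, the intervals did not overlap, and the log2 ratio of stimulation was -1.28 (-1.45 to -1.12) in CPM but 0.069 in UMIs per cell. *Mga*, a MAX partner that also carries a T-box domain, stood at 35.4 CPM (33.5 to 37.4), 27.6 CPM (26.7 to 28.6) and 34.6 CPM (33.5 to 35.8). The unstimulated WT and IFT20-KO values did not differ beyond their intervals. The ratio of *Mga* for stimulation was -0.36 (-0.45 to -0.26) in CPM, 0.16 in thinned cells and 0.996 in UMIs per cell. *Mlx* stood at 77.7 CPM (74.9 to 80.6), 65.8 CPM (64.3 to 67.3) and 59.5 CPM (58.0 to 60.9), the only one of the 9 genes that was lowest in the IFT20-KO library. Its ratio for stimulation was -0.24 (-0.30 to -0.18) in CPM and 1.11 in UMIs per cell.

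**Figure D1:**
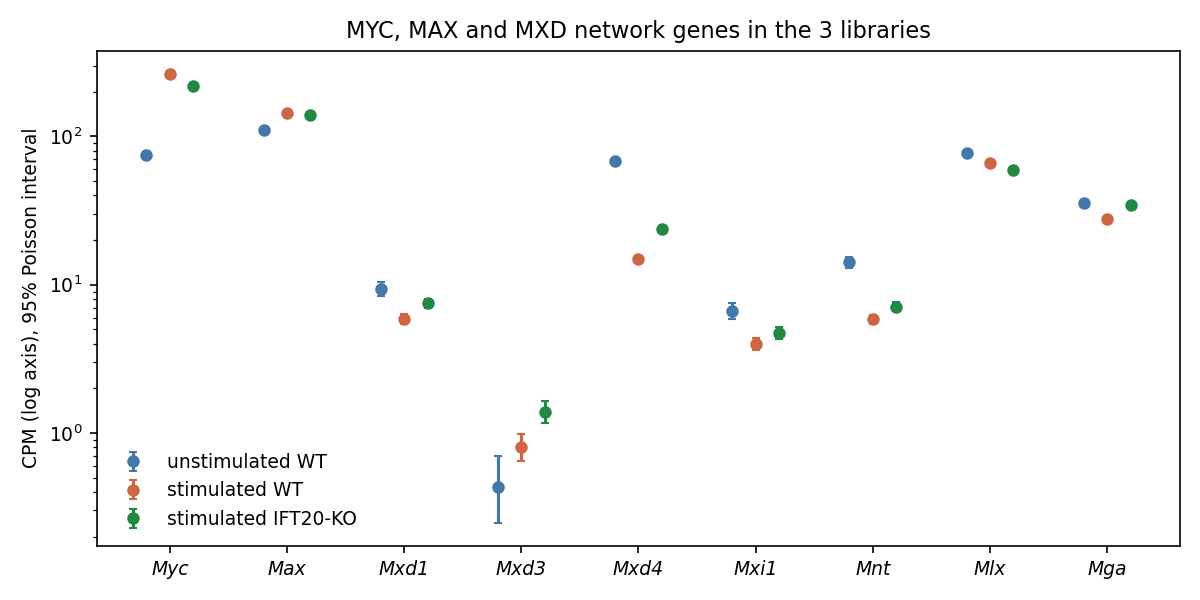
Expression of the 9 network genes in CPM, on a log axis, in the 3 libraries (1 per condition, error bars are exact 95% Poisson intervals). *Myc* is highest at 264 CPM in stimulated WT cells, *Mxd4* is highest at 68.6 CPM in unstimulated WT cells, and *Mxd3* stays below 2 CPM.

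Counted against a 2-fold difference in CPM, 1 of the 9 genes was higher after stimulation (*Myc*; 19.3% of all tested genes passed the same fold upwards) and 2 were lower (*Mxd4* and *Mnt*; 23% of all tested genes passed it downwards). These shares are near the background, so the count itself sets the 9 genes apart from other genes in neither direction. The UMIs of 5 of the MAX-binding antagonists, *Mxd1*, *Mxd3*, *Mxd4*, *Mxi1* and *Mnt*, were also summed, without the repressive partner *Mga*. They came to 99.3 CPM (96.1 to 102.6) in unstimulated WT, 31.4 CPM (30.4 to 32.4) in stimulated WT and 44.5 CPM (43.3 to 45.8) in IFT20-KO cells. *Mxd4* made up 69.1%, 47.3% and 53.5% of these UMIs. For every 100 antagonist UMIs there were 76.1 *Myc* UMIs in the unstimulated library, 841 in the stimulated WT library and 494 in the IFT20-KO library. This quotient does not depend on how the libraries are scaled, but capture can differ between genes, so it is not a ratio of proteins. It also depends on the depth of the cells, which differed between libraries. Cells of 1400 to 2800 UMIs made up 16.9% of the stimulated WT and 36.2% of the IFT20-KO library. The part of depth in the difference between these quotients was not tested. Per cell, this sum moved little, from 0.459 UMIs in unstimulated to 0.371 in stimulated WT cells, while *Myc* went from 0.349 to 3.12 UMIs per cell. *Mga*, left out of the sum, went from 0.164 to 0.326 UMIs per cell. The direction of the per-cell sum and the size of the quotients therefore depend on leaving *Mga* out.

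The IFT20-KO library differed from the stimulated WT library less than stimulation did in the CPM of *Myc*, *Mxd4* and *Mnt*, and the largest differences in CPM were in *Mxd3* and *Mxd4*. The log2 ratio of IFT20-KO over WT was 0.68 (0.59 to 0.77) for *Mxd4* and 0.79 (0.41 to 1.18) for *Mxd3* in CPM. In UMIs per cell these ratios were only 0.052 and 0.16, and the largest were those of *Myc* at -0.89, *Mlx* at -0.77 and *Max* at -0.68. *Mxd3* and *Mxd4* were the 2 of the 9 genes at least 1.5-fold higher in CPM in IFT20-KO cells, where 13.4% of all 13504 tested genes were. None of the 9 was 1.5-fold lower, where 3.27% of all tested genes were. *Myc* had a log2 ratio of -0.26 (-0.29 to -0.24), a difference of 1.20-fold, against a median of 0.14 over all tested genes. *Mlx* was at -0.15 (-0.19 to -0.098) and *Max* at -0.048 (-0.080 to -0.016). *Mxd1* at 0.34 (0.20 to 0.49), *Mga* at 0.33 (0.26 to 0.39), *Mnt* at 0.29 (0.14 to 0.44) and *Mxi1* at 0.24 (0.053 to 0.42) were higher in IFT20-KO cells in CPM and lower in UMIs per cell. The antagonist sum had a log2 ratio of 0.50 (0.44 to 0.57) in CPM and of -0.12 in UMIs per cell. Both comparisons use the stimulated WT library, so an opposite direction in them is partly built in and is not read as a result.

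**Figure D2:**
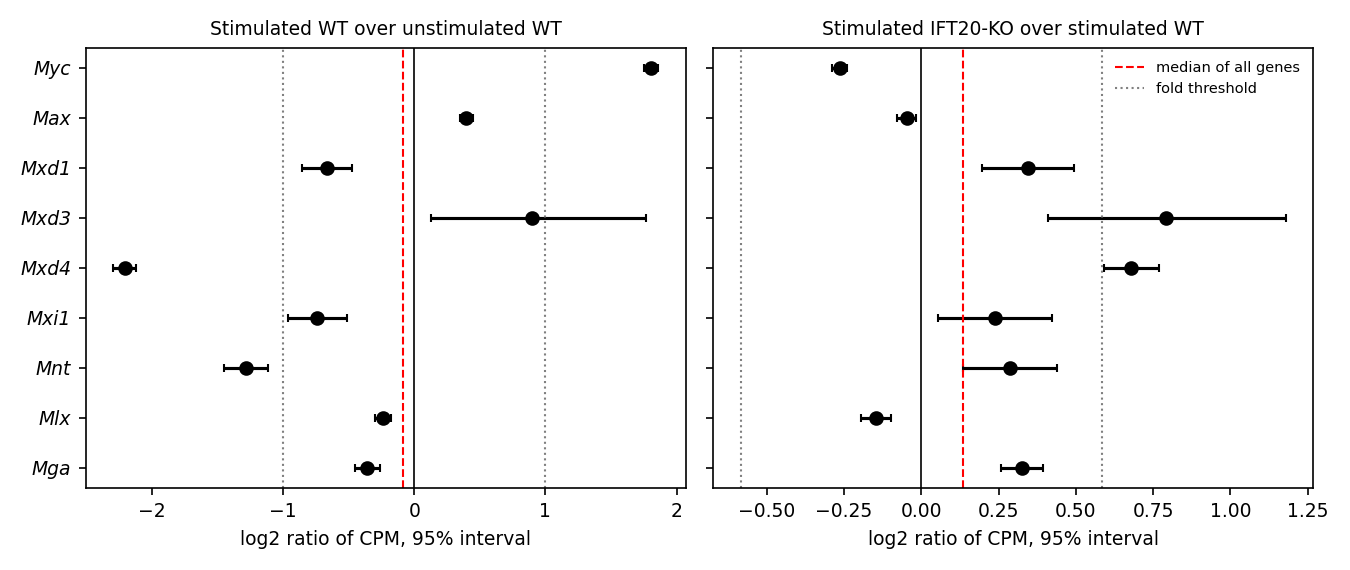
Log2 ratios of CPM for the 9 genes, left for stimulated over unstimulated WT and right for stimulated IFT20-KO over stimulated WT, with exact 95% binomial intervals. The dashed line is the median of all tested genes (-0.089 left, 0.14 right) and dotted lines are the 2-fold and 1.5-fold limits. On the left *Myc* lies above and *Mxd4* and *Mnt* below the limits, and on the right *Mxd3* and *Mxd4* lie above.

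The cells of a library differ widely in total UMIs, and the share of mitochondrial UMIs goes with them, so the genes were followed over 5 bins of total UMIs. The first bin was 1400 to 2800 UMIs and the second 2800 to 5600, and each further bin began at 2 times the lower limit of the one before, the last having no upper limit. From the first to the fifth bin, *Myc* stood at 166, 178, 261, 275 and 248 CPM in stimulated WT cells. It stood at 195, 193, 228, 224 and 229 CPM in the same bins of IFT20-KO cells. In unstimulated WT cells the first 4 bins gave 64.6, 69.8, 87.4 and 80.05 CPM, and the fifth held only 2 cells. *Myc* thus took a somewhat larger share of the UMIs in deep than in shallow cells of each stimulated library, with log2 ratios of 0.58 (0.45 to 0.71) and 0.23 (0.13 to 0.32) from the lowest to the highest bin. This was not particular to *Myc*, since *Mlx* was at 0.89 (0.62 to 1.16) and 0.28 (0.091 to 0.46). In WT, 9.28% of all tested genes were at least 2-fold higher in the highest bin and 42.9% at least 2-fold lower, and the median gene was at -0.74. In IFT20-KO cells these shares were 1.23% and 38.6%. The mitochondrial share went from 10.3% in the first to 1.19% in the last bin of stimulated WT and from 5.55% to 1.06% of IFT20-KO cells, and its part in these values was not tested.

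Over single cells, the UMI count of *Myc* went with total UMIs with a Pearson correlation of 0.22 in 8031 unstimulated WT, 0.47 in 9903 stimulated WT and 0.53 in 13920 IFT20-KO cells. The total holds the depth of the cell in both measures. With every cell thinned to 1400 UMIs, the correlation of *Myc* with the cell's own total was 0.0085, 0.066 and 0.031. A thinned cell holds few UMIs of *Myc*, so these values are given as a description and nothing is read from them.

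Several other members took a smaller share of the UMIs in deep than in shallow stimulated cells, as most genes did. From the lowest to the highest bin the log2 ratios in stimulated WT and IFT20-KO cells were -1.54 and -1.28 for *Mga*, -1.35 and -1.20 for *Mnt*, and -1.14 and -0.90 for *Mxd4*, where the median gene was at -0.74 and -0.65. *Mxd1* lay further from the median gene, at -3.07 and -2.81. *Mxd1* stood at 31.7, 10.8, 8.66, 4.41 and 3.78 CPM from the shallowest to the deepest stimulated WT cells and at 22.0, 16.9, 6.55, 4.32 and 3.14 CPM in IFT20-KO cells. *Mga* stood at 78.2, 51.3, 25.3, 25.5 and 26.9 CPM in stimulated WT and at 70.5, 72.0, 26.3, 27.1 and 29.0 CPM in IFT20-KO cells. In unstimulated WT cells *Mxd1* stood between 7.70 and 9.86 CPM and *Mga* between 33.3 and 40.5 CPM in the 4 bins with more than 2 cells, but these bins leave out cells under 1400 UMIs. With the unstimulated cells in 5 equal parts by depth, the shallowest part, of 510 to 3309 UMIs and with 4.80% of its UMIs from mitochondrial genes, had *Mxd1* at 20.9 CPM (15.9 to 26.8) and *Mga* at 59.5 CPM (51.0 to 69.0), above the other parts at 7.60 to 9.02 and 33.0 to 33.7 CPM. Against unstimulated cells of the same bin, *Mxd1* was higher in the shallowest stimulated WT cells, with a log2 ratio of 1.69 (0.70 to 2.85), and lower in those of the fourth bin, with -1.11 (-1.93 to -0.14). *Myc* and *Mxd4* kept their direction for stimulation in each of the first 4 bins, with *Myc* between 1.36 and 1.78 and *Mxd4* between -2.63 and -1.32.

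The difference in *Myc* between the stimulated libraries depended on depth. Its log2 ratio of IFT20-KO over WT was 0.23 (0.093 to 0.37) in cells of 1400 to 2800 UMIs and 0.11 (-0.082 to 0.32) in the next bin. It was -0.20 (-0.25 to -0.14), -0.30 (-0.33 to -0.27) and -0.12 (-0.20 to -0.038) in the 3 deeper bins. *Mxd4* was higher in IFT20-KO cells in all 5 bins, at 0.56, 0.54, 0.26, 0.50 and 0.81, and only the interval of the second bin, -0.051 to 1.19, included 0. *Mxd1*, higher in IFT20-KO cells over the whole library, was lower in 4 of the 5 bins, with ratios between -0.53 and -0.031, and at 0.64 in the second. Its interval left out 0 only in the first bin (-0.86 to -0.18) and the third (-0.73 to -0.075). The median over the MYC target list described below was 0.15, 0.12, 0.053, -0.040 and -0.035 in these bins, and that of all tested genes was -0.085, 0.16, 0.063, 0.036 and -0.0064.

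**Figure D3:**
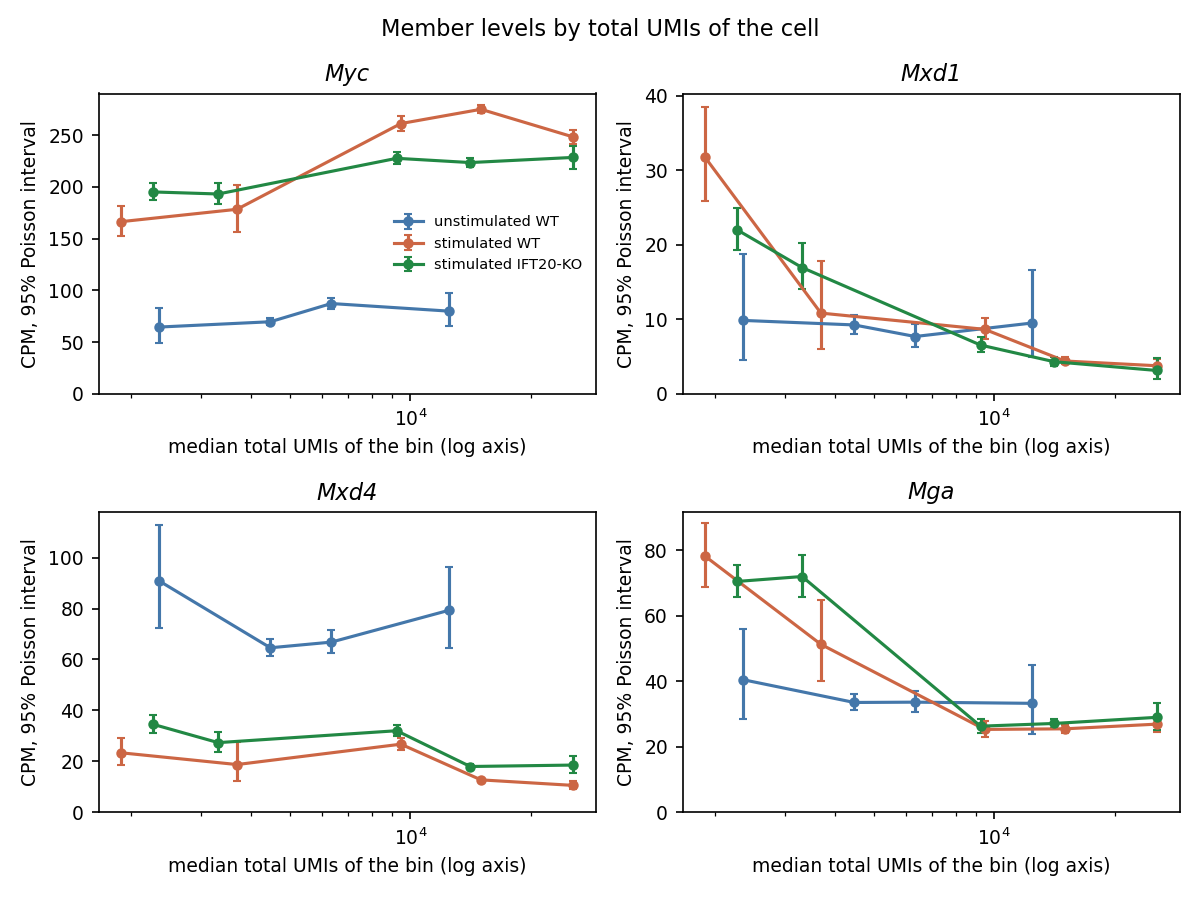
Expression of *Myc*, *Mxd1*, *Mxd4* and *Mga* in CPM against the median total UMIs of each bin of cells (log axis) in the 3 libraries, with exact 95% Poisson intervals and without the bin of 2 unstimulated cells. In both stimulated libraries *Mxd1* and *Mga* are higher in the first 2 bins than in the deeper ones, and *Myc* of WT and IFT20-KO cells changes order between shallow and deep cells.

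The genes were also followed in cells classed by markers in their thinned counts, none of which is one of the 9 genes. Such classes are ranges of a score and not cell types. Naïve-marked cells had at least 2 UMIs of 7 naïve markers (among them *Klf2*, *Il7r*, *Ccr7* and *Tcf7*) and more of them than of 7 activation markers (among them *Il2ra*, *Tnfrsf4*, *Cd69* and *Nr4a1*), and activation-marked cells the reverse. *Myc* stood at 71.8 CPM in 6803 naïve-marked and 328 CPM (279 to 382) in 96 activation-marked unstimulated WT cells. In stimulated WT it stood at 172 CPM in 2862 naïve-marked and 347 CPM in 3641 activation-marked cells, and in IFT20-KO at 173 CPM in 5004 and 272 CPM in 4751 cells. *Myc* was therefore higher in activation-marked cells of all 3 libraries. The log2 ratio was 2.19 in unstimulated WT, where 23.5% of all tested genes were at least 2-fold higher. A gene at 0 UMIs in these 96 cells was set to a floor of 3 UMIs, which raises its ratio. The share of 23.5% therefore includes genes not seen there, among them *Mxd3* at 4.37. The log2 ratio of *Myc* was 1.01 (0.97 to 1.06) in stimulated WT, where 3.01% were at least 2-fold higher, and 0.65 (0.60 to 0.70) in IFT20-KO cells, where 1.73% were.

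Between the stimulated libraries, *Myc* in naïve-marked cells had a log2 ratio of IFT20-KO over WT of 0.0078 (-0.048 to 0.064), and in activation-marked cells of -0.35 (-0.39 to -0.32). The median depth of the naïve-marked cells was 10250 UMIs in WT and 3064 in IFT20-KO cells. That of the activation-marked cells was 12695 UMIs in WT and 3902 in IFT20-KO cells. The part of depth in either ratio was not tested. *Mxd4* and *Mxd1* were lower in activation-marked than in naïve-marked cells of the stimulated libraries, with log2 ratios of -1.61 (-1.79 to -1.44) and -1.68 (-1.95 to -1.41) in stimulated WT, where 5.09% of all tested genes were at least 2-fold lower, and of -1.27 and -1.14 in IFT20-KO cells, where 3.98% were. In unstimulated WT cells *Mxd1* was higher in activation-marked cells, at 1.40 (0.38 to 2.26) from 11 UMIs, and *Mxd4* was at 0.057 (-0.48 to 0.54). *Mlx* was higher in activation-marked cells, by 0.51 and 0.36. The classes have many cells at their limits: 953 naïve-marked and 1356 activation-marked cells of stimulated WT lay near the limit, as did 1840 and 1930 of IFT20-KO cells.

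*Mxd3* was concentrated in cells with G2/M transcripts. With G2/M-marked cells defined by at least 3 thinned UMIs of 15 genes including *Mki67*, *Top2a* and *Cdk1*, there were 5 such cells in unstimulated WT, 113 in stimulated WT and 251 in IFT20-KO cells. In stimulated WT, *Mxd3* stood at 25.6 CPM (17.6 to 36.0) in marked cells, from 33 UMIs, and at 0.296 CPM (0.201 to 0.420) in cells with 0 UMIs of the list, from 31 UMIs. In IFT20-KO cells it stood at 29.9 CPM (21.7 to 40.3), from 43 UMIs, and 0.782 CPM (0.610 to 0.988), from 70 UMIs. The log2 ratios were 6.44 (5.68 to 7.19) and 5.26 (4.68 to 5.83), where 25.7% and 27.7% of all tested genes were at least 2-fold higher. Genes at 0 UMIs in the few marked cells were set to a floor of 3 UMIs there, which raises their ratios. These shares can therefore include genes not seen in marked cells, and the floor can keep such genes from being called lower. *Myc* did not follow *Mxd3*, with -0.27 (-0.45 to -0.10) in WT and -0.45 (-0.65 to -0.27) in IFT20-KO cells, and *Mxd1* was higher in marked cells, at 1.56 (0.86 to 2.19) and 1.35 (0.71 to 1.93). *Mxd4* was lower in them, at -1.29 (-2.50 to -0.31) and -0.65 (-1.33 to -0.052), where 2.03% and 1.38% of all tested genes were at least 2-fold lower. Marked cells were shallower, with medians of 6488 against 12590.5 UMIs in WT and 3071 against 7582.5 in IFT20-KO cells, and had more mitochondrial UMIs, at 2.51% against 1.54% and 3.81% against 1.72%. With a limit of 5 UMIs in place of 3, the intervals of *Myc* in WT and of *Mxd4* in both libraries included 0.

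For *Mxd3*, the log2 ratio of IFT20-KO over WT was 0.23 (-0.46 to 0.93) within marked cells and 1.40 (0.77 to 2.06) within cells with 0 UMIs of the list. The interval within marked cells includes both no difference and the ratio of 0.79 over all cells. For stimulation of WT cells, *Mxd3* was at -2.78 (-3.77 to -1.69) within marked cells, from 33 UMIs against 12 in 5 unstimulated cells. Within cells with 0 UMIs of the list it was at 1.41 (-0.095 to 3.37), from 31 against 4 UMIs. It was at 1.52 (0.40 to 2.74) within naïve-marked cells and at -2.04 (-3.30 to -0.50) within cells neither naïve-marked nor activation-marked. Marked cells made up 1.80% (1.59 to 2.04) of the thinned cells in IFT20-KO and 1.19% (0.983 to 1.43) in stimulated WT. From 5 UMIs of the list the shares were 0.467% (0.361 to 0.595) and 0.369% (0.257 to 0.513), with overlapping intervals. In CPM, 15 of the 15 G2/M genes were higher in the IFT20-KO library, 7 of them at least 1.5-fold. Of all 13504 tested genes, 9219 were higher in it and 13.4% at least 1.5-fold higher.

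**Figure D4:**
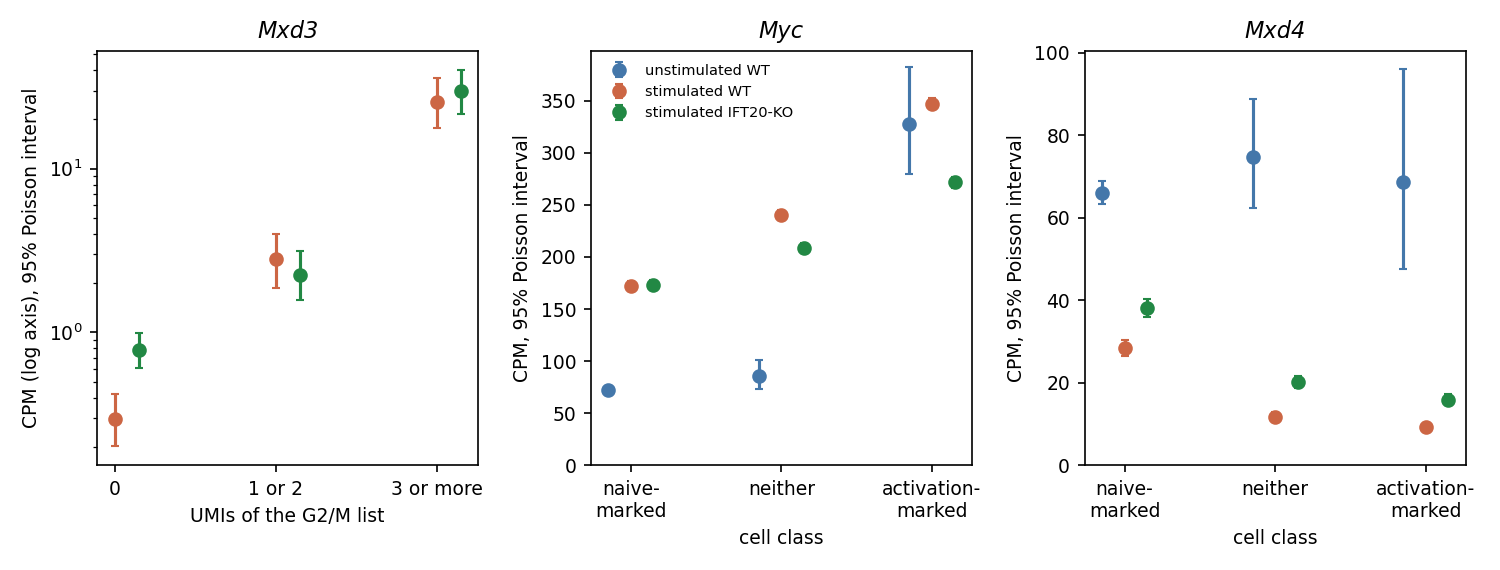
Expression in CPM by marker class of cells, with exact 95% Poisson intervals. The left panel shows *Mxd3* on a log axis by UMIs of the G2/M list in the stimulated libraries, where it lies below 1 CPM at 0 UMIs and at 25.6 and 29.9 CPM at 3 or more. The other panels show *Myc* and *Mxd4* in naïve-marked, activation-marked and remaining cells of the 3 libraries, and *Myc* in naïve-marked cells is the same height in both stimulated libraries.

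Of the remaining genes of the network, the MYC paralog *Mycn* had 0 UMIs in unstimulated WT, 14 in stimulated WT and 14 in IFT20-KO cells. With the unstimulated library set to a floor of 3 UMIs, this is 1.48-fold higher on stimulation, a value that leaves out the counting error of the 14 UMIs. *Mycl* had 0 UMIs in each library, where the floor of 3 UMIs stands at 0.0808, 0.0256 and 0.0282 CPM. *Mlxip*, a partner of MLX, stood at 16.1, 9.32 and 11.7 CPM, and *Mlxipl* had 1, 8 and 13 UMIs. *Txnip*, a textbook target of the MLX dimers that limits glucose uptake, stood at 418, 26.6 and 35.2 CPM, with a log2 ratio of -3.97 (-4.03 to -3.92) for stimulation and 0.40 (0.33 to 0.47) for IFT20-KO over WT. A further target, *Arrdc4*, stood at 0.269, 0.564 and 0.676 CPM and so differed in the other direction on stimulation, at 1.07 (0.098 to 2.19).

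Of 34 genes for cofactors and for regulators of MYC stability, 6 were at least 2-fold higher and 3 at least 2-fold lower in stimulated than in unstimulated WT cells, where 19.3% and 23% of all tested genes were, so neither share of the list was above that of all genes. The higher ones were *Sap30*, of the SIN3 corepressor complex that MXD proteins recruit, at 2.49, the helicase subunits *Ruvbl1* at 1.94 and *Ruvbl2* at 1.82, the chromatin adaptor *Wdr5* at 1.17, the ubiquitin ligase subunit *Skp2* at 1.04 and the kinase *Aurka*, also a gene of the G2/M list, at 1.00. The lower ones were the deubiquitinase *Usp28* at -3.06, the MYC-interacting adaptor *Bin1* at -1.27 and *Gsk3b*, the kinase that marks MYC for degradation, at -1.03. In IFT20-KO cells 2 of the 34 were at least 1.5-fold higher, the ubiquitin ligase *Huwe1* at 0.64 and the heterochromatin protein gene *Cbx3* at 0.65, and none was 1.5-fold lower, against 13.4% and 3.27% of all tested genes.

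A list of 72 genes known as MYC targets, mostly of ribosome building, nucleotide synthesis and metabolism, was set beside the network genes, and 71 of them had at least 10 UMIs. The list was chosen with earlier results of these data known. After stimulation, 68 of the 71 were higher in CPM and 3 lower, where 6254 and 7043 of all 13297 tested genes were. Of the 71, 56 were at least 2-fold higher, against 19.3% of all genes. The median log2 ratio of the 71 was 1.43, against -0.089. The highest were *Hk2*, a hexokinase, at 6.11 (4.98 to 7.56) from 0.162 to 11.2 CPM, the transferrin receptor gene *Tfrc* at 4.59, *Odc1*, the first enzyme of polyamine synthesis, at 3.84, the replicative helicase subunit *Mcm5* at 3.54 and the mitochondrial chaperonin *Hspd1* at 3.40. The lowest were *Sord* at -1.13 (-1.51 to -0.75), *Cbx3* at -0.68, *Wdr74* at -0.35 with an interval of -0.92 to 0.25, and *Tcof1* and *Ddx18*, both at 0.25.

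Between the stimulated libraries, the ratios of the same 71 genes lay near 0. In IFT20-KO cells 44 were lower and 27 higher than in WT, where 4285 and 9219 of all 13504 tested genes were. Of the 71, 2 were at least 1.5-fold higher (*Sord* at 0.89 and *Cbx3* at 0.65), where 13.4% of all tested genes were. None was 1.5-fold lower, where 3.27% of all tested genes were. Their median was -0.066 against 0.14 for all genes, and 11 of the 71 lay above the median of all genes. The lowest were the ribosome biogenesis gene *Rrp9* at -0.33, *Hk2* at -0.33, the nucleoside diphosphate kinase *Nme1* at -0.29, *Wdr74* at -0.27 and the phosphatase *Dusp2* at -0.27. After *Sord* and *Cbx3* the highest were *Tfrc* at 0.57 and the mitotic kinases *Plk1* and *Plk4*, both at 0.51. CACGTG was found in the promoter table for 19 of 63 matched target genes, 30.2%, against 8.09% of all 27025 genes there, detected here or not. As the list is of known targets of MYC, which binds this motif, the higher share may be partly built in. It is not read as a result.

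**Figure D5:**
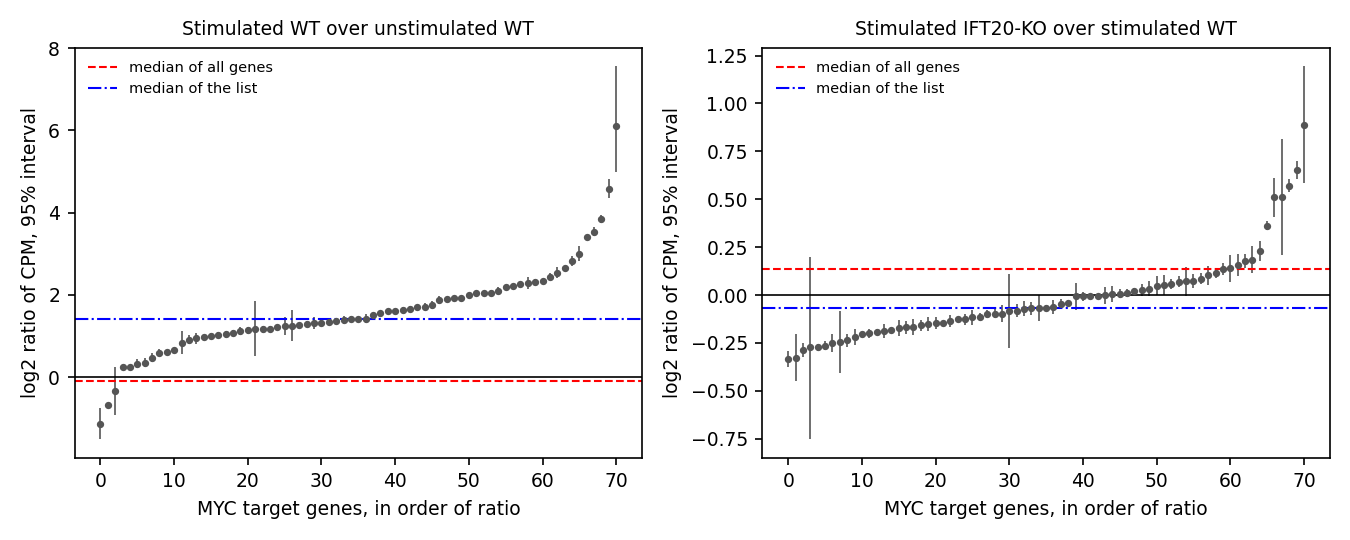
Log2 ratios of CPM of the 71 MYC target genes in ascending order, left for stimulated over unstimulated WT and right for stimulated IFT20-KO over stimulated WT, with exact 95% binomial intervals. The list's median is 1.43 on the left, above the median of all genes at -0.089, and -0.066 on the right, below the median of all genes at 0.14.

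The genes most like *Myc*, *Mxd4* and *Mxd3* were sought by the Pearson correlation of log2(CPM + 1) over 15 points, the 5 bins of total UMIs in each of the 3 libraries. The points share libraries and depth, and no p is given. For *Myc* they were *Pla2g12a* at 0.995, *Odc1*, *Psme3*, *Mrps18b* and *Pgd* at 0.98, among 3418 genes of at least 50 CPM in any library. For *Mxd4* they were *Nsg2* at 0.97, *Ndrg3*, *Arl5c*, *Ramp1* and *Tbxa2r* at 0.96. For *Mxd3*, among 6084 genes of at least 20 CPM, they were *Hmgb2* at 0.96, *Incenp*, *Commd10*, *Nol6* and *Alkbh3* at 0.94. Without the point that held 2 cells, a choice made after the values were seen, only *Pla2g12a* was again among the 5 for *Myc*, beside *Mthfd2*, *Phgdh*, *Ppa1* and *Tpi1*. The 5 for *Mxd4* then were *Ramp1*, *Mob3a*, *Rassf5*, *Sh3bp1* and *Arl5c*, and those for *Mxd3* were *Nol6* at 0.86, *Incenp*, *Mki67*, *Top2a* and *BC004004* at 0.76.

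Some of the 9 genes overlap another gene on the opposite strand, and whether the counting used the strand was not given in the sources used here. *Mxd3* at chr13:55325168-55329823 overlaps *Prelid1*, *Mxd4* at chr5:34173883-34187720 overlaps *Gm42846*, *Mxi1* at chr19:53310518-53375810 overlaps *Gm10197* and *Mlx* at chr11:101087277-101092207 overlaps *Psmc3ip*. The other members have no overlap in the annotation, at chr12:76937269-76962201 for *Max*, chr6:86647042-86669161 for *Mxd1*, chr11:74830920-74845725 for *Mnt* and chr2:119897228-119969581 for *Mga*. The kit of these libraries is a 5′ kit in the labels and a 3′ kit in the methods, so the end of the transcript that was counted is not settled.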

How the data were processed

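RNA of single sorted CD4+ T cells from mouse spleen was measured in 3 libraries, 1 per condition. The authors counted UMIs with Cell Ranger (3.1.0 in the file headers, mm10 in the submitters' processing notes) and deposited raw counts of UMIs per gene and called barcode, without normalization. The annotation they used was not given in the sources used here.

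The study's own limits were used to keep barcodes, namely over 200 genes and less than 15% mitochondrial UMIs, and counts were summed per library and scaled to 1000000. Total UMIs per library were between 37133949 and 116979076, which sets the width of the intervals. Intervals are exact Poisson for CPM, exact binomial (Clopper-Pearson) for ratios and shares, at the 95% level. A gene was tested against the fold if its UMIs in the compared libraries came to 10 or more. A gene at 0 was set to a floor of 3 UMIs. Doublets were not removed.

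Positions come from GENCODE M21 (GRCm38), in which 31011 of the 31053 identifiers were found. The members and lists were chosen with earlier results of these data known. All members were named, and from the other lists the 5 highest and lowest target genes, the network genes and cofactors past the fold (*Mycn*, *Mycl*, *Mlxip*, *Mlxipl*, *Txnip* and *Arrdc4* were named in addition, as 2 whole lists) and the 5 genes most like *Myc*, *Mxd4* and *Mxd3*. Alternatives covered scaling, weighting of cells, barcode filters, depth of cells, the minimum of UMIs, 5 equal parts of each library by depth in place of fixed bins and a G2/M class from 5 UMIs. On simulated counts with 200 genes changed, the interval held the true ratio for 96% of them in the stimulation comparison (12516 genes) and 95% in the IFT20-KO comparison (12745 genes). These counts were drawn from the Poisson model on which the interval rests. They therefore check the calculation and say nothing about variation between cells or libraries. Python 3.11.15, numpy 2.4.6, scipy 1.17.1, pandas 2.3.3 and matplotlib 3.10.9 were used.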

Additional observations from a re-analysis of the deposited data

How the results depend on the processing

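The log2 ratios of *Myc* for stimulation and of *Mxd4* for both comparisons kept their sign in 8 of 8 alternatives, with *Myc* from 1.65 (cells of depth bins 3 and 4) to 3.16 (UMIs per cell) and *Mxd4* from -2.20 to -0.85 on stimulation and from 0.052 to 0.70 for IFT20-KO over WT, nearest 0 in UMIs per cell. Median-ratio scaling gave 1.94 for *Myc* on stimulation. For IFT20-KO over WT, *Myc* was at -0.42 with median-ratio scaling, -0.22 as the mean of per-cell fractions and -0.89 in UMIs per cell. UMIs per cell moved the median of all genes to 1.26 for stimulation and -0.49 for IFT20-KO over WT, and turned *Mnt* on stimulation to 0.069. The network genes at least 2-fold higher on stimulation numbered 2 with median-ratio scaling, with per-cell fractions and in thinned cells, and 4 in UMIs per cell, and those 2-fold lower numbered 1 in thinned cells and 0 in UMIs per cell. Network genes at least 1.5-fold higher in IFT20-KO cells numbered 1 with median-ratio scaling, in thinned cells and in cells of depth bins 3 and 4, and 0 in UMIs per cell, where 3 were lower. Of the MYC target genes, 0 were 2-fold lower on stimulation with per-cell fractions, in UMIs per cell and in thinned cells. Target genes 1.5-fold higher in IFT20-KO cells numbered 1 with median-ratio scaling and in cells of depth bins 3 and 4, 0 in UMIs per cell, and 4 with the stricter barcode filter and without cells under their library's median UMIs divided by 3. Those 1.5-fold lower numbered 1 with per-cell fractions, in thinned cells and with a minimum of 1 UMI, and 50 in UMIs per cell. In UMIs per cell the median of all genes was itself at -0.49 for IFT20-KO over WT. Shares of all genes past the same folds are not given here for these alternatives. The counts therefore describe the processing and are not read as results about the lists. The ratio of *Myc* between the highest and lowest cells by depth in unstimulated WT was 0.64 with 5 equal parts of the library, and that of *Mxd3* between G2/M-marked and unmarked cells was 7.30 in WT and 6.19 in IFT20-KO cells from 5 UMIs. With the same limit, *Myc* was at 0.093 (-0.21 to 0.38) in WT and -0.9998 (-1.49 to -0.55) in IFT20-KO cells. Its sign in WT therefore depended on the limit. *Mxd4* was at -2.38 (-7.68 to 0.10) in WT, from 1 UMI, and -0.27 (-1.58 to 0.78) in IFT20-KO cells, from 7 UMIs. *Mxd1* stayed higher in marked cells, at 2.25 and 1.56. The cause of these differences was not tested. No paired analysis was possible because each group is 1 library, and for the same reason no library could be left out.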
